A study of Mus musculus with 20 samples.

Results

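The AP-1 and immediate early genes followed here were 10 genes chosen by symbol, namely Fos, Fosb, Fosl1, Fosl2, Jun, Junb, Jund, Egr1, Atf3 and Ier3, out of 47069 genes in the deposited count table. Their RNA was measured in whole kidneys of 20 male mice at 15 weeks of age. The 5 untreated wild-type (WT) mice and the 15 knockout mice had a mixed 129SJ and C57Bl/6J background, and the knockouts carried no functional Col4a3, which encodes a collagen chain of the glomerular basement membrane. From 5 weeks of age, 6 knockout mice received weekly subcutaneous PBS (Veh), 6 received weekly Lademirsen at 50 mg/kg, an oligonucleotide inhibitor of miR-21 (anti-miR-21), and 3 received the angiotensin-converting enzyme inhibitor ramipril (ACEi), dosed through drinking water at 11 mg/L, with PBS injections. The library table that accompanies the counts gives the ramipril dose in another unit, so that dose is uncertain. The knockout is constitutive, and each library is the RNA of a whole organ from a single animal.

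AP-1 is a dimer of a Fos-family and a Jun-family protein, or of Jun proteins with ATF relatives, that binds DNA through a basic leucine zipper. The Fos, Jun and Egr genes are immediate early genes: growth factors, cytokines, mechanical strain and injury switch them on through MAP kinases and serum response factor without new protein synthesis, and their mRNAs decay fast. In kidney they are known to respond to tubular and glomerular injury, and they also respond to handling of tissue before it is frozen.

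Totals of estimated counts on genes were 28474301 to 29479629 per mouse, so the depth was nearly equal. The 20 libraries came from 2 flow cells, 13 on the one called A here and 7 on the other (B). Only 1 of the 3 ACEi libraries was on A. Flow cell B also held 2 WT, 2 Veh and 1 anti-miR-21 library, the last being mouse A10. The targeted gene Col4a3 averaged 217 CPM (estimated counts scaled to library size and by TMM factors) with an SD of 16.4 over the 5 WT mice, and 37.8 CPM with an SD of 7.63 over the 6 Veh mice, and every WT mouse (at least 194 CPM) lay above every knockout mouse (at most 74.8 CPM). Kidney markers were present in all groups, with proximal tubule marker sums from 1291 CPM in a Veh mouse to 14983 CPM in a WT mouse. One protocol label names adipose tissue, and the sum of 5 adipocyte markers ranged from 22.2 to 276 CPM over the Veh mice. The WT mouse A18 had an endothelium marker sum of 81.0 CPM and a fibroblast marker sum of 75.4 CPM, the lowest of its group for both. In bulk tissue, fewer cells of a type and less RNA per cell cannot be told apart.

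The sequences here show the promoter windows of Fos and Jun, which gave the families their names, and of Fosb, and the microRNA that Lademirsen inhibits. Each promoter runs over the 250 bases before the start of transcription in RefSeq (build GRCm38.p6), 5′ to 3′ on the strand of the gene. Capitals mark matches on either strand to the AP-1 site TGANTCA, the cAMP response element TGACGTCA, the related 8-base site TGACNTCA, the shorter element TGACG (part of the cAMP response element), the EGR site GCGNGGGCG, the TATA box TATAAA and the CArG box bound by serum response factor. The 3 windows, and the motif TGACNTCA, were chosen after the sequences were seen.
Fos (chr12:85473640-85473889, plus strand): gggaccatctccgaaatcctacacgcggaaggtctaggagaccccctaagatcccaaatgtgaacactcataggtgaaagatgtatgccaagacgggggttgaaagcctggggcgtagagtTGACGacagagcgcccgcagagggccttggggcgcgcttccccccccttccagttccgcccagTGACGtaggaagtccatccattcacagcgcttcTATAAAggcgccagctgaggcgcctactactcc
Fosb (chr7:19310046-19310295, minus strand): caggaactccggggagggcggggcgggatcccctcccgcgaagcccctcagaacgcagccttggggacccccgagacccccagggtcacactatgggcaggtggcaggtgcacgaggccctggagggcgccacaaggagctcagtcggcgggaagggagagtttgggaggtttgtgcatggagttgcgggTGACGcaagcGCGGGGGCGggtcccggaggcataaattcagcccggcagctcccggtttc
Jun (chr4:95052223-95052472, minus strand): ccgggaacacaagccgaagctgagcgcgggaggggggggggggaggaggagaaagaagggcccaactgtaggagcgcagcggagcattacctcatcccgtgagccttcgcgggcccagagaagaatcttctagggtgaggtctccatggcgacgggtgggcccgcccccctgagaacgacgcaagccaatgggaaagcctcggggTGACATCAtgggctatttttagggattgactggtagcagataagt
mmu-miR-21a-5p (chr11:86584120-86584141, minus strand): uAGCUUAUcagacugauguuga

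In the Fos window, TGACG began 129 and 66 bases before the start and TATAAA 33 bases before it. Fosb had TGACG 60 bases and an EGR site 50 bases before the start, and Jun had the 8-base site TGACATCA 45 bases before it. Among all 32851 RefSeq promoter windows of this length, 17.8% held TGACG, 12.4% held TATAAA, 4.70% held the EGR site, 7.49% held TGACNTCA, 6.75% held TGANTCA, 1.55% held TGACGTCA and 1.47% held a CArG box. A promoter sequence was matched for 8 of the 10 members, and none of the 8 windows held a CArG box, TGANTCA or TGACGTCA. The windows do not all meet the annotated gene start. That of Jund ended at base 70697738, before the annotated start at 70698949, and those of Fosl2 and Atf3 lay inside the annotated genes. In the microRNA, capitals mark the seed (bases 2 to 8). The DNA complement of that seed, ATAAGCT, occurred in the longest annotated 3′ UTR of 0 of the 10 members and of 7.62% of the 15245 tested genes with a 3′ UTR. A motif match or its absence is a description of the letters only.

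In WT kidneys, Jund was the most abundant member per length of transcript, with 50.9 ± 12.3 FPKM (fragments scaled to transcript length and library size, SD, n = 5), followed by Ier3 at 23.8 ± 3.05 FPKM. Junb and Jun came next, at 7.22 ± 2.77 and 6.80 ± 1.80 FPKM, and their ranges overlapped. Egr1, Fosl2, Fos and Atf3 lay between 1.56 and 0.476 FPKM as group means, each overlapping its neighbour in the order. Fosb averaged 0.0440 FPKM and Fosl1 0.00826 FPKM, so these 2 were close to undetected. In Veh the order was Jund at 104 ± 18.3 FPKM, Ier3 at 75.4 ± 13.8, Junb at 73.5 ± 14.6, Jun at 49.8 ± 18.2 and Egr1 at 46.3 ± 28.0 FPKM (n = 6), and each of these overlapped the next. Fosb and Fosl1 stayed lowest, at 1.25 ± 0.834 and 0.604 ± 0.249 FPKM. The FPKM entries of Fosl1 and Junb are marked by the authors as confounded with another gene. In the annotation, Fosl1 overlaps Ccdc85b, Junb overlaps Prdx2, Jun overlaps Junos, Jund overlaps Gm11175 and Atf3 overlaps the short RNA gene Gm24748, each on the opposite strand, and the strand used in counting is not given in the sources used here, so reads of these pairs may be shared.

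All 10 members were higher in Veh than in WT by edgeR's quasi-likelihood test, where 39.0% of the 17622 genes tested were called higher. Their log2 fold changes had a median of 3.18, against 0.07 over all genes tested, and ran from 0.44 for Jund to 4.55 for Atf3. For 9 of the 10 the ranges of the groups did not overlap, as for 28.8% of all genes tested in that direction, and the exception was Jund. Within flow cell A alone, all 10 members were also called higher, where 6474 of 18433 genes tested were called higher. TMM factors were 0.771 to 0.850 in WT and 1.12 to 1.26 in Veh, and scaling by library totals alone moved the median of all genes to 0.65, with 11623 genes called higher and 2684 lower against 6869 and 5998 with TMM. All 10 members were called higher under both scalings, Jund by 1.03 with library totals.

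Fos, the founding Fos-family subunit, measured 0.891, 1.19, 1.82, 2.57 and 1.93 CPM in the WT mice. In Veh its lowest, median and highest values were 10.9, 16.4 and 39.9 CPM. Every Veh mouse was thus above every WT mouse, a fitted 11.5-fold difference (log2 fold change 3.53, SE 0.42, adjusted p = 2.37e-07).

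Fosb, a Fos relative with a strong transactivation domain, had 0 to 8 counts in the WT mice, that is 0.267, 0.205, 0.338, 0 and 0.210 CPM. In Veh it ran from 2.16 to 8.52 CPM with a median of 2.81 CPM (log2 fold change 4.17, SE 0.50, adjusted p = 2.05e-07). Groups this close to 0 make the fold imprecise, although no value of one group reached the other. Fosl1, which encodes Fra-1, had 1 to 7 counts in WT, or 0.0445, 0.164, 0.211, 0.286 and 0.0419 CPM. Its Veh values ran from 1.32 to 3.38 CPM with a median of 2.17 CPM, again above every WT mouse (log2 fold change 3.94, SE 0.47, adjusted p = 2.55e-07). Fosl2, which encodes Fra-2, was the better expressed Fra gene, at 7.66, 11.6, 12.3, 13.9 and 6.58 CPM in WT and 48.6 to 72.1 CPM in Veh, with a median of 57.1 CPM (log2 fold change 2.49, SE 0.21, adjusted p = 1.5e-09).

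Jun, the partner of Fos in the classical AP-1 dimer, was 24.8, 26.2, 22.7, 36.4 and 20.5 CPM in WT. In Veh its lowest, median and highest values were 99.7, 109 and 212.6 CPM, and no mouse of one group lay within the other (log2 fold change 2.27, SE 0.20, adjusted p = 3.78e-09). Junb, a Jun relative that is a weaker activator, moved further. It was 12.6, 8.36, 16.1, 23.3 and 14.2 CPM in WT and 82.8, 106 and 135 CPM at the lowest, median and highest in Veh (log2 fold change 2.84, SE 0.24, adjusted p = 1.53e-09). Jund, the Jun gene that many resting cells express, changed least among the members. Its WT values were 122, 113, 140, 181 and 184 CPM and its Veh values ran from 157 to 249 CPM with a median of 199.8 CPM, so that 2 WT mice lay inside the Veh range (log2 fold change 0.44, SE 0.13, adjusted p = 0.0053).

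Egr1, a zinc finger transcription factor induced together with Fos, was 2.36, 3.08, 8.40, 9.73 and 5.49 CPM in WT and ran from 66.9 to 245 CPM in Veh, with a median of 92.7 CPM (log2 fold change 4.28, SE 0.41, adjusted p = 1.04e-08). Atf3, a stress-induced bZIP repressor that can pair with Jun, was 1.43, 0.820, 1.10, 1.31 and 1.05 CPM in WT. In Veh it reached 18.1, 19.8 and 61.2 CPM at the lowest, median and highest, a fitted 23.4-fold difference (SE 0.36 on the log2 scale, adjusted p = 5.7e-10). Ier3, an early response gene linked to cell survival, rose 2.09-fold, from 26.1, 34.4, 33.4, 30.5 and 32.9 CPM in WT to between 56.1 and 80.7 CPM in Veh (log2 fold change 1.06, SE 0.15, adjusted p = 2.97e-06). For these 3 genes no value of one group fell inside the other.

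**Figure D1:**
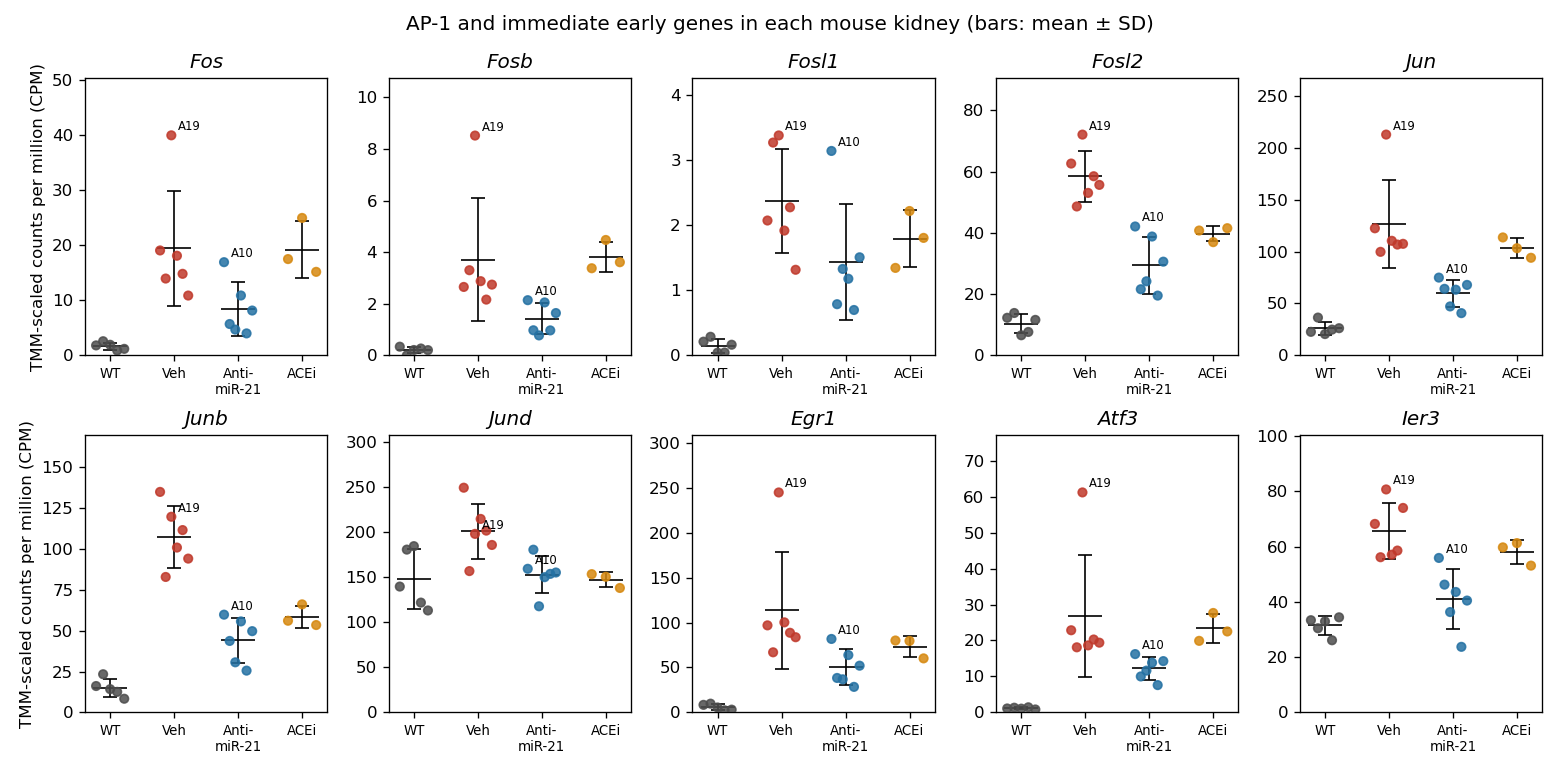
CPM after TMM scaling (linear vertical axes from 0) for each member in each mouse of the 4 groups on the horizontal axis, with mean and SD as bars. Veh mouse A19 stands far above the other Veh mice for Fos, Fosb, Jun, Egr1 and Atf3, and anti-miR-21 mouse A10 above its group for Fosl1.

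A single Veh mouse, A19, set the top of the range for 8 of the 10 members, all but Junb and Jund. It had 39.9 CPM of Fos against at most 19.04 in the other 5 Veh mice, 245 CPM of Egr1 against at most 100.2, and 61.2 CPM of Atf3 against at most 22.8. Its Jun was 212.6 CPM against at most 122, and its Fosb 8.52 CPM against at most 3.30. A19 also ranked first of the 6 Veh mice for the summed CPM of the other immediate early genes (1950, others 1231 to 1593), of the feedback inhibitors (1230, others 928 to 1122) and of the heat shock genes (3266, others 1888 to 2614). For macrophage markers its rank was 3 (1067 CPM, others 945 to 1204) and for tubule injury markers 5 (907 CPM, others 818 to 1327). Its rank was 6, the lowest, for distal tubule markers (242 CPM, others 251 to 377) and collecting duct markers (206.8 CPM, others 213.5 to 535). The same held for smooth muscle (149.6 CPM, others 161.7 to 215.2) and adipocyte markers (22.2 CPM, others 24.1 to 276). A19 ranked first for podocyte markers (106.6 CPM, others 85.8 to 95.3) and AP-1 partner bZIP genes (451 CPM, others 378 to 441). The other pathway and marker lists gave ranks from 2 to 5. The part of these differences in the members' values was not tested. Without A19, all 10 members were still called higher in Veh than in WT, with Fos at 3.19 and Atf3 at 4.12 on the log2 scale. That fit called 6735 of 17548 genes higher.

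The make-up of each family is given per length of transcript. In WT, Fosl2 gave 67.0 ± 8.75% and Fos 30.3 ± 9.17% of the Fos-family sum of FPKM (SD, n = 5). In Veh their shares were 49.8 ± 8.29% and 43.1 ± 7.34% (n = 6), and the ranges overlapped for both genes (Fosl2 53.4 to 76.6% and 35.4 to 60.2%, Fos 21.2 to 43.9% and 33.7 to 55.6%). The sum of the family averaged 2.11 ± 0.626 FPKM in WT and 25.7 ± 9.39 FPKM in Veh. These sums are not TMM-scaled, and divided by the TMM factors they averaged 2.57 ± 0.692 and 20.9 ± 7.09 FPKM. Within the Jun family, Jund held 78.4 ± 3.29% in WT and 46.0 ± 4.13% in Veh, with no overlap between 74.9 to 83.9% and 38.0 to 50.0%. Junb went from 10.9 ± 2.21% to 32.3 ± 1.62% and Jun from 10.7 ± 2.53% to 21.7 ± 4.94%. In the anti-miR-21 group Jund was 59.7 ± 5.99% of the Jun family, and in the ACEi group 48.4 ± 0.490% (n = 3). These shares are given without a test.

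**Figure D2:**
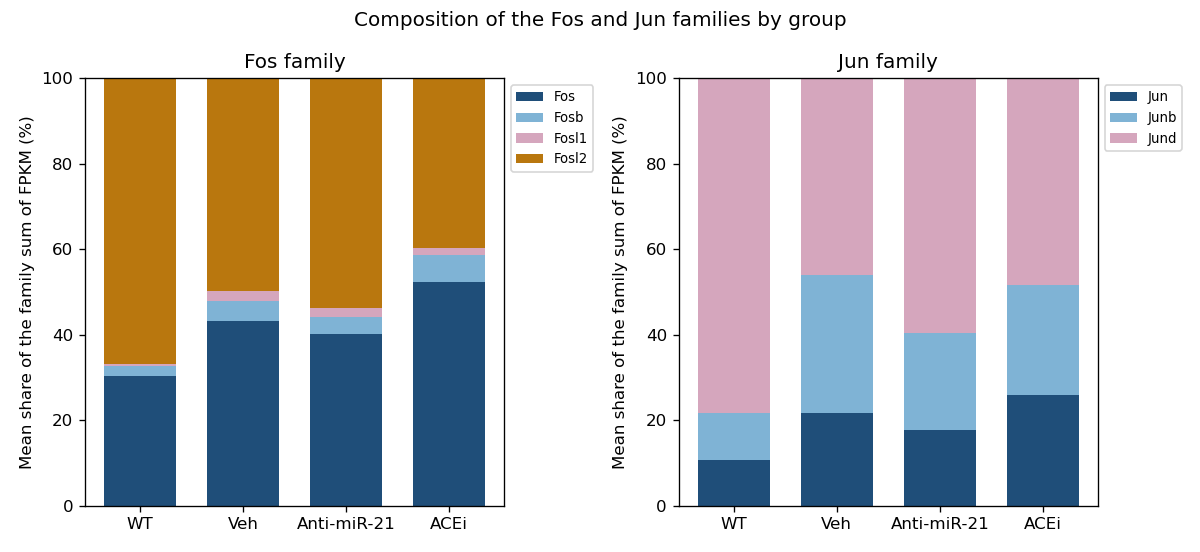
Stacked bars give the mean share (%) of each gene in the summed FPKM of the Fos family (left) and the Jun family (right) in the 4 groups. Jund averages 78.4% of the Jun family in WT and 46.0% in Veh, without overlap, and Fosl2 67.0% and 49.8% of the Fos family, with overlapping ranges.

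Anti-miR-21 treatment was compared with Veh to ask how the members stood in treated knockout kidneys. By edgeR 9 of the 10 members were lower than in Veh, where 30.5% of all genes tested were called lower, and the exception was Fosl1 (adjusted p = 0.0781). The median log2 fold change of the members was -1.10, against -0.04 over all genes. The groups did not overlap for 6 members, as for 17.9% of all genes tested in that direction. Within flow cell A all 10 members were called lower, where 4930 of 18433 genes tested were called lower. From the anti-miR-21 group that fit leaves out only mouse A10, so flow cell and mouse cannot be told apart there. With library totals alone, 9861 genes were called lower and 2459 higher against 5367 and 5073 with TMM, the median of all genes was -0.38, and all 10 members were called lower, Fosl1 by 1.02 on the log2 scale (adjusted p = 0.0147).

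Among Fos-family genes, Fosb ranged from 0.775 to 2.14 CPM in the anti-miR-21 mice with a median of 1.31 CPM, all under the lowest Veh mouse (log2 fold change -1.37, SE 0.36, adjusted p = 0.00293). Fosl2 ran from 19.5 to 42.1 CPM with a median of 27.4 CPM, also below every Veh mouse (-0.99, SE 0.18, adjusted p = 0.000114). Fos ran from 3.99 to 16.9 CPM with a median of 6.92 CPM, and mice A2 and A10 lay within the Veh range (-1.21, SE 0.34, adjusted p = 0.0044). Fosl1 was between 0.698 and 3.14 CPM, with a median of 1.25 CPM, and overlapped Veh (-0.71, SE 0.34). The top Fosl1 value was that of mouse A10, and without A10 the log2 fold change of Fosl1 was -1.10 with an adjusted p of 0.00564.

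Of the Jun genes, Junb was 25.5 to 59.7 CPM with a median of 46.7 CPM and Jun was 40.7 to 74.9 CPM with a median of 63.7 CPM. Both lay below every Veh mouse, by 1.28 (SE 0.21, adjusted p = 2.9e-05) and 1.08 (SE 0.18, adjusted p = 4.25e-05) on the log2 scale. Jund, at 118 to 180 CPM with a median of 154 CPM, was lower by a smaller amount and overlapped Veh (log2 fold change -0.40, SE 0.13, adjusted p = 0.0104). Egr1 ran from 28.4 to 81.7 CPM with a median of 45.2 CPM and overlapped Veh through mouse A10 (-1.18, SE 0.33, adjusted p = 0.00427). Atf3, at 7.60 to 16.2 CPM (median 12.7), and Ier3, at 23.7 to 55.9 CPM (median 42.0), were below every Veh mouse. Their log2 fold changes were -1.12 (SE 0.26, adjusted p = 0.00101) and -0.68 (SE 0.14, adjusted p = 0.000408).

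Leaving out A19 reduced these differences without ending a call: Fos went to -0.85, Egr1 to -0.78, Atf3 to -0.67 and Fosb to -0.92 on the log2 scale. Within the anti-miR-21 group, A10 was the highest of 6 mice for every member but Jund and A22 was the lowest for 8 of the 10, the exceptions being Fosb and Jund, which were lowest in A15. Compared to WT, 9 of the 10 members were higher in the anti-miR-21 group by edgeR, where 23.9% of all genes tested were called higher. The groups did not overlap for 8 members, as for 14.7% of all genes tested in that direction. With library totals alone 9 members were called higher too, with 7719 genes higher and 998 lower against 4203 and 3496 with TMM. Atf3 was 3.43 (SE 0.36), Fosl1 3.22 (SE 0.48) and Egr1 3.11 (SE 0.40) above WT on the log2 scale, while Jund was at 0.05 (SE 0.13, adjusted p = 0.803). Ier3 was only just past the threshold (0.38, SE 0.15, adjusted p = 0.0475) and was no longer called within flow cell A (adjusted p = 0.232).

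ACEi was compared with the same 6 Veh mice, so that the 2 treatment comparisons share their controls. By edgeR 2 of the 10 members were lower, Junb and Jund, where 19.1% of all genes tested were called lower. At an unadjusted p under 0.05 there were 3 members, a cut at which no share of all genes was taken. The median log2 fold change of the members was -0.35, against -0.05 over all genes. The groups did not overlap for Junb, Jund and Fosl2, as for 18.8% of all genes tested in that direction. With library totals alone, 7389 genes were called lower and 1907 higher against 3370 and 3704 with TMM, the median of all genes was -0.32, and 3 members were called lower, the added one being Fosl2 (-0.83, adjusted p = 0.0142).

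Junb was 56.0, 66.0 and 53.4 CPM in the 3 ACEi mice, all below the lowest Veh mouse (log2 fold change -0.87, SE 0.26, adjusted p = 0.0117). Jund was 153, 150.4 and 138 CPM, just below the lowest Veh value of 157 CPM (-0.45, SE 0.16, adjusted p = 0.0279). Both calls rest on few mice: without ACEi mouse A23 neither passed (adjusted p = 0.0544 for Junb and 0.108 for Jund), and Jund also failed without any one of Veh mice A1, A4 and A20 or ACEi mice A11 and A13. Flow cell A holds 1 ACEi library, so no value within it was taken, and with flow cell as a term Junb was at -0.96 (adjusted p = 0.00854) and Jund at -0.51 (adjusted p = 0.0172). Fosl2 was 40.8, 37.0 and 41.6 CPM, below every Veh mouse, with an adjusted p of 0.0565 (-0.56, SE 0.23). It passed in DESeq2 (adjusted p = 0.0354).

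The other 7 members did not pass against Veh. Fos was 17.5, 24.9 and 15.2 CPM in the ACEi mice and within the Veh range (log2 fold change -0.02, SE 0.40). Fosb was 3.38, 4.47 and 3.61 CPM (0.04, SE 0.42), and all 3 ACEi mice lay above every Veh mouse but A19. Atf3 was 19.9, 27.7 and 22.5 CPM (-0.20, SE 0.32) and Jun 114, 103 and 94.0 CPM (-0.29, SE 0.22). Egr1 was 80.0, 79.5 and 60.1 CPM (-0.63, SE 0.41), Fosl1 1.34, 2.22 and 1.81 CPM (-0.41, SE 0.42) and Ier3 59.7, 61.2 and 53.1 CPM (-0.18, SE 0.18). With SEs this wide and 3 mice, missing the threshold does not show that these genes did not differ. Without A19 the estimates for Fos, Fosb and Atf3 were 0.35, 0.50 and 0.26. Against WT, 9 of the 10 members were higher in the ACEi group, where 25.2% of all genes tested were called higher, and Jund was at -0.01 (SE 0.16). The groups did not overlap for these 9, as for 23.9% of all genes tested in that direction. With library totals alone 9 members were also called, with 8006 genes higher and 1345 lower against 4432 and 3973 with TMM.

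**Figure D3:**
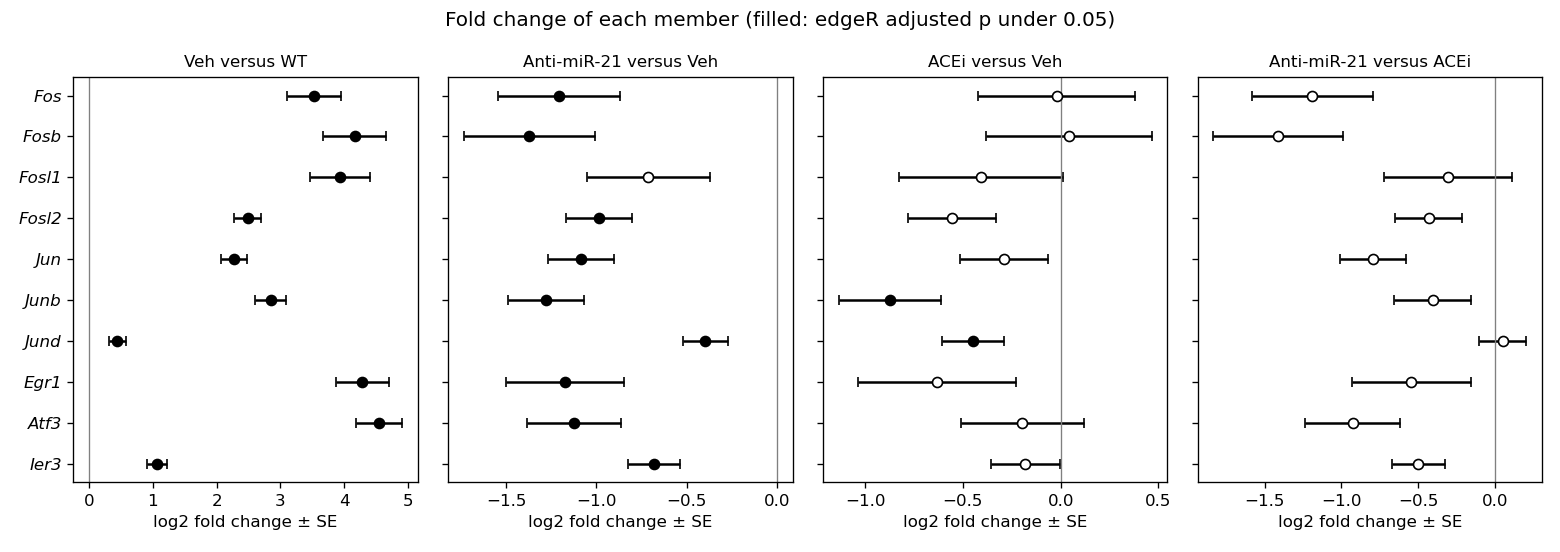
Log2 fold change (horizontal axis) with its SE for each member (rows) in 4 comparisons, with filled points where the edgeR adjusted p is under 0.05. All 10 points are filled in Veh against WT, 9 in anti-miR-21 against Veh, 2 in ACEi against Veh and 0 in anti-miR-21 against ACEi.

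The difference between the treatments was tested directly by setting anti-miR-21 against ACEi. By edgeR 0 of the 10 members passed, where 0.584% of all genes tested did, with 5 members at an unadjusted p under 0.05. No share of all genes was taken at that unadjusted cut. DESeq2 called 2, Fosb and Jun, where it called 437 of 17622 genes, against 103 in the main fit. EdgeR on these groups alone called Jun, where it called 141 of 16629 genes. Fosb (log2 fold change -1.41, SE 0.42, adjusted p = 0.13), Jun (-0.80, SE 0.22, adjusted p = 0.0952) and Atf3 (-0.93, SE 0.31, adjusted p = 0.168) were lower in every anti-miR-21 mouse than in every ACEi mouse, as were 4.80% of all genes tested. Fos was -1.19 (SE 0.40, adjusted p = 0.167) with overlapping groups, and Junb, Egr1, Fosl2 and Fosl1 lay between -0.54 and -0.31. Flow cell A held 5 anti-miR-21 libraries but 1 ACEi library. With flow cell as a term in the edgeR fit no member passed. Fosb was then at -1.45 (adjusted p = 0.147), Jun at -0.77 (0.137), Atf3 at -0.98 (0.176) and Fos at -0.99 (0.249).

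Marker genes of other cell types were read beside the members. Each of 6 macrophage markers rose between WT and Veh, and their summed level was 146 to 163 CPM in WT, 945 to 1204 in Veh, 400.3 to 623 in the anti-miR-21 group and 517 to 617 in the ACEi group. All 6 were lower than in Veh under each treatment, with median log2 fold changes of -1.07 under anti-miR-21 and -0.97 under ACEi. All 4 tubule injury markers were higher in Veh too, with sums of 22.3 to 34.5, 818 to 1327, 263 to 548 and 528 to 610 CPM in the same order, and against Veh 3 of the 4 were lower under anti-miR-21 and 1 under ACEi. With library totals alone these counts were 4 and 2. Fibroblast marker sums were 75.4 to 174 CPM in WT and 428 to 531 in Veh, and proximal tubule sums were at least 11685 CPM in WT and at most 3627 CPM in Veh. Of 4 fibroblast markers, 3 were lower than in Veh under anti-miR-21 and 1 under ACEi, or 3 and 4 with library totals. All 5 proximal tubule markers fell between WT and Veh, and each treatment group had all 5 higher than the Veh group. With TMM, 2 of 4 endothelium markers rose between WT and Veh, and none (0) was called under either treatment against Veh by edgeR. With library totals 4 endothelium markers rose, 1 was lower under anti-miR-21 and 0 under ACEi. All 5 T cell markers were higher in Veh, with sums of 1.86 to 2.54 CPM in WT and 8.56 to 33.6 CPM in Veh. Against Veh, 4 T cell markers were lower under anti-miR-21 and 0 under ACEi, or 5 and 0 with library totals. Of 5 adipocyte markers, 4 rose between WT and Veh, 0 were called under anti-miR-21 by edgeR and 3 were lower under ACEi, with sums of 25.1 to 50.1 CPM in WT, 22.2 to 276 in Veh, 43.7 to 243 under anti-miR-21 and 33.2 to 38.0 under ACEi. With library totals 4 adipocyte markers were lower under ACEi. No marker of these lists was at 0 in all mice of a group. Of 4 neutrophil markers 2 could be tested and 0 were called by edgeR in any comparison with TMM. With library totals 1 neutrophil marker was higher in Veh than in WT and 1 was lower under ACEi than in Veh. The part of cell composition in the members' levels was not tested.

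Within groups, the members tended to be high in the same mice. After subtraction of group means from log2 CPM, 43 of the 45 pairs had a positive Pearson r over the 20 mice, with a median of 0.54. By permutation within groups (100000 resamples, two-sided, Benjamini-Hochberg over 45 pairs), 24 pairs passed for r and 12 for Spearman's rho. No such share or median was taken over pairs of other genes. Whether the members varied together more than other genes do was not tested. Fos and Egr1 were closest (r = 0.91, rho = 0.94, permutation p = 1e-05 for both, the smallest these resamples can give), and r was 0.87 without A10 and A19, the 2 mice farthest from the median of Fos. By r, Jun and Atf3 came next at 0.79. By rho, the next were Fos and Junb (r = 0.77, rho = 0.85, r = 0.81 without A10 and A19) and Junb and Egr1 (r = 0.76, rho = 0.84, r = 0.72 without A6 and A22, the mice farthest from the median of Junb). For Fosb, r was between -0.24 and 0.51 against the others over all mice, and these values rest on few libraries. The WT mouse A17, with 0 Fosb counts, lowered them: without it r was 0.81 with Fos, 0.78 with Jun, 0.75 with Egr1 and 0.83 with Atf3. The r of Fosb with Fos, 0.36 over all mice, was 0.01 without A10 and A19 and 0.87 within flow cell A, which does not hold A17. Jund correlated with Junb (r = 0.64) and little with Fosl2 (r = 0.05) or Atf3 (r = 0.10). Leaving out A19 lowered r of Jun and Atf3 from 0.79 to 0.59.

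**Figure D4:**
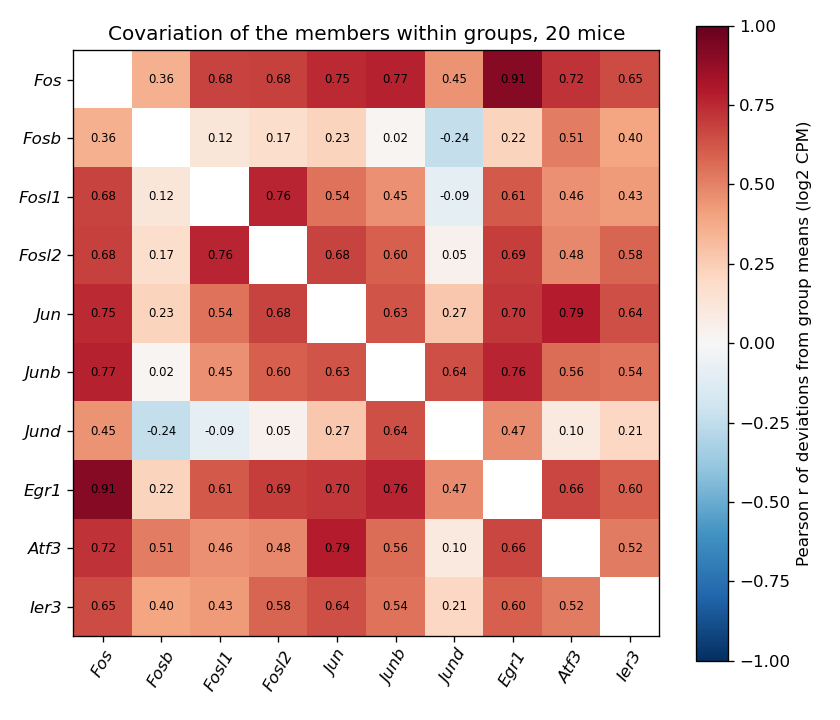
Heat map of Pearson r for each pair of members (rows and columns), from deviations of log2 CPM from the group means over 20 mice. Fos with Egr1 is highest at 0.91, and Fosb with Fos is 0.36 here but 0.81 without WT mouse A17.

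The genes outside the members that followed each of them most closely within groups were searched among 12562 protein-coding genes, as a description without a test. Fos was most like Zfp36l1 (r = 0.90), Ier2 (r = 0.85) and Mllt1 (r = 0.83), of which Zfp36l1 encodes a factor that degrades AU-rich mRNAs and Ier2 is itself an immediate early gene. Egr1 was nearest to Zfp36 (r = 0.86), Oas2 (r = 0.81) and Cxcl1 (r = 0.81), Jun to Nr4a1 (r = 0.90), Btg2 (r = 0.86) and Tyk2 (r = 0.86) and Atf3 to Dusp8 (r = 0.88), Nfe2l2 (r = 0.83) and Hs1bp3 (r = 0.83). For Fosl2 the genes were Arhgef40 (r = 0.94), Kctd10 (r = 0.94) and Csf1 (r = 0.92), the last encoding the macrophage growth factor CSF-1. Junb was nearest to Slc2a6 (r = 0.87), Olfm2 (r = 0.86) and Slc22a15 (r = 0.85), and Jund to Wtip (r = 0.88), Pkp3 (r = 0.86) and Hmg20b (r = 0.86). Fosl1 was nearest to Abcg1 (r = 0.81), Fgd6 (r = 0.81) and Stx11 (r = 0.80), Fosb to Anapc1 (r = 0.83), Zfp868 (r = 0.82) and Rp2 (r = 0.78) and Ier3 to Pvr (r = 0.80) and Pdgfb (r = 0.79).

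Related genes of the pathway were read from lists, with calls by edgeR over all genes tested. Of all genes, 39.0% were higher and 34.0% lower in Veh than in WT, 28.8% higher and 30.5% lower under anti-miR-21 than in Veh, and 21.02% higher and 19.1% lower under ACEi. Of 26 other immediate early genes tested, 25 rose and 0 fell between WT and Veh, 23 were lower under anti-miR-21 than in Veh, and 11 lower under ACEi. Their median log2 fold changes were 1.89, -0.80 and -0.48. With library totals 26 were lower under anti-miR-21 and 17 under ACEi. Egr2, a zinc finger gene related to Egr1, went from 0.250 CPM in WT to 26.3 in Veh, 9.92 under anti-miR-21 and 14.9 under ACEi, and Klf6 from 18.9 to 114, 64.3 and 89.3 CPM. Klf6 did not pass under ACEi (adjusted p = 0.169), but with library totals it was called lower (log2 fold change -0.63, adjusted p = 0.0323).

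Among 12 bZIP partners of AP-1, 8 were higher and 3 lower in Veh. Creb5 (0.697 to 12.3 CPM) and Maff (2.49 to 20.6 CPM), a small Maf gene, rose most, while Maf (239 to 118 CPM) and Mafg (113 to 83.8 CPM) fell, although with library totals alone Mafg was at 0.15 on the log2 scale and not called (adjusted p = 0.114). Under anti-miR-21, 7 of the 12 were lower and 3 higher than in Veh, and under ACEi 4 and 3. With library totals these counts were 9 and 1 under anti-miR-21, and 7 and 1 under ACEi. At that scaling 56.0% of all genes were lower under anti-miR-21 and 41.9% under ACEi.

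The 25 upstream kinases and serum response factor partners had 12 genes higher and 11 lower in Veh, with a median log2 fold change of 0.11. Of all genes tested, 39.0% were higher and 34.0% lower. With library totals alone 20 were higher and 2 lower, where 66.0% of all genes were higher and 15.2% lower. Map3k1 rose from 26.5 to 94.8 CPM and Mapk11 from 5.28 to 19.9 CPM, and Map2k6 (21.6 to 9.07 CPM) and Map2k2 (178 to 112 CPM) fell. All 4 were past the threshold in the opposite direction under both treatments with TMM, but with library totals Map2k2 was called in none of these 3 comparisons (-0.07 between Veh and WT, adjusted p = 0.263). Of the 18 feedback inhibitors, which include MAP kinase phosphatases and mRNA decay factors, 13 were higher and 3 lower in Veh. Dusp5, a phosphatase of ERK, rose from 2.11 to 13.6 CPM and Dusp10 from 1.06 to 5.00 CPM, whereas Dusp4 (9.73 to 6.67 CPM) and Dusp1, itself an immediate early gene (59.0 to 42.8 CPM), fell (log2 fold change of Dusp1 -0.46, adjusted p = 0.0253). With library totals neither was called, Dusp4 at 0.05 (adjusted p = 0.861) and Dusp1 at 0.12 (adjusted p = 0.551). Under anti-miR-21, 9 of the feedback inhibitors were lower and 1 higher, and under ACEi 3 were lower and 0 higher. These counts depend on the scaling: with library totals 14 were lower under anti-miR-21 and 11 under ACEi, with 0 higher under either. Of all genes, 56.0% and 41.9% were then lower.

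Of 13 genes commonly described as AP-1 targets, 11 were higher and 1 lower in Veh, 10 were lower under anti-miR-21 and 7 lower under ACEi. Timp1, an inhibitor of matrix metalloproteinases, went from 0.592 CPM in WT to 98.2 in Veh, 26.4 under anti-miR-21 and 38.8 under ACEi. Ccl2, the monocyte chemokine, was 0.271, 38.5, 28.9 and 35.3 CPM in the same order and did not pass under either treatment against Veh (adjusted p = 0.121 and 0.746). Ccnd1, which encodes cyclin D1, fell (177 to 133 CPM), but with library totals it was at 0.17 and not called (adjusted p = 0.23). Mmp9 was lower under anti-miR-21 than under ACEi (1.77 against 3.41 CPM, log2 fold change -0.94, adjusted p = 0.0406) and Plau higher (642 against 429 CPM, 0.58, adjusted p = 0.0311), and these 2, named after their values were seen, were the list genes that differed between the treatments.

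Of 9 integrated stress response genes, 8 were higher in Veh, 7 lower under anti-miR-21 and 2 lower under ACEi. With library totals 8 were lower under anti-miR-21 and 5 under ACEi, where 56.0% and 41.9% of all genes were. Atf5 was at 13.1, 41.2, 21.8 and 23.7 CPM and Ddit4 at 26.9, 69.2, 25.6 and 34.5 CPM in WT, Veh, anti-miR-21 and ACEi. Of the heat shock genes, 1 of 9 was higher (Hspb1, 23.02 to 135 CPM) and 6 lower in Veh than in WT, among them the mitochondrial chaperones Hspd1 (738 to 205.9 CPM) and Hspe1 (159 to 66.9 CPM). Compared to Veh, anti-miR-21 mice had 5 heat shock genes higher and 1 lower, and ACEi mice 6 higher and 0 lower. These directions depend on the scaling: with library totals 1 was higher and 3 lower in Veh than in WT (median log2 fold change 0.01, against -0.58 with TMM), and under each treatment 3 were higher and 1 lower than in Veh.

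**Figure D5:**
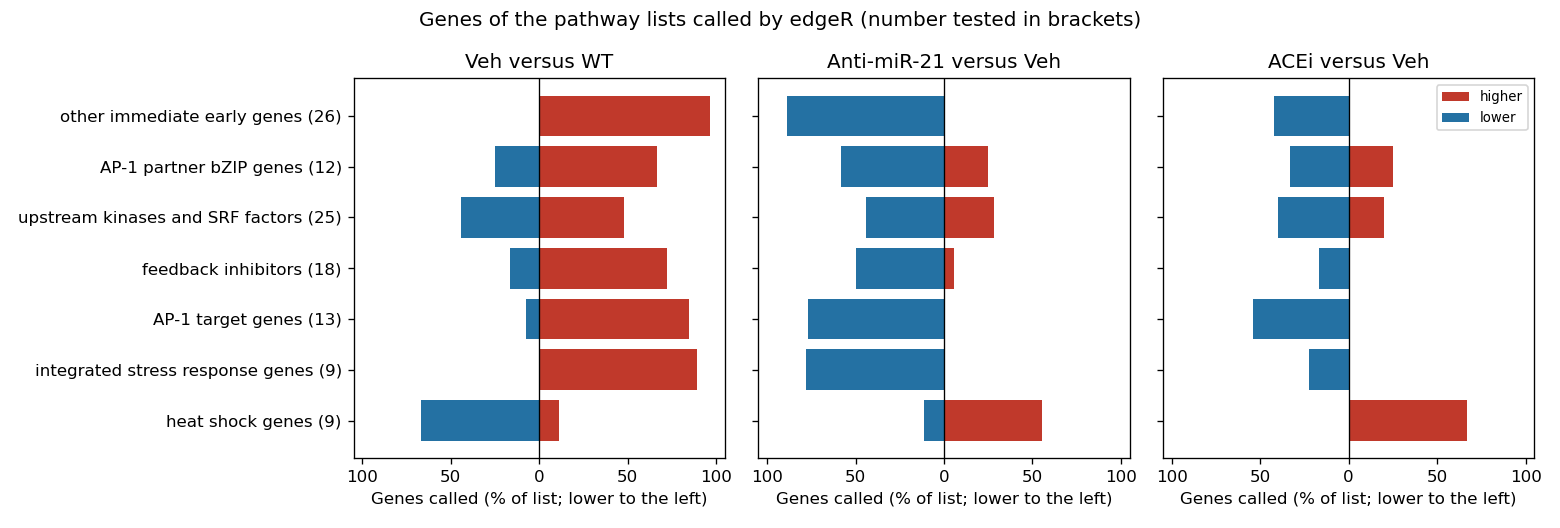
Share of each list called higher (to the right) or lower (to the left) by edgeR, in percent of the genes tested, for Veh against WT, anti-miR-21 against Veh and ACEi against Veh. Other immediate early genes were 25 of 26 higher in Veh, and heat shock genes 6 of 9 lower with TMM scaling and 3 of 9 with library totals.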

How the data were processed

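RNA sequencing of kidneys from 20 mice was read from the deposited tables. The authors aligned reads to GRCm38 in OmicSoft Studio and deposited estimated counts per gene, of which 23.2% of positive values were not whole (tolerance 0.001), and FPKM values per gene. In the FPKM file, 3 columns matched no mouse and were not used. Estimated counts were rounded. Totals were 28474301 to 29479629 per mouse, so genes with few counts, such as Fosb and Fosl1 in WT, are the least precise.

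Genes were kept with edgeR's filterByExpr (minimum count 10, total 15), leaving 17622, and tested with TMM scaling and the quasi-likelihood test in edgeR 4.0.16 (R 4.3.3), all 20 mice and 4 group coefficients in a single model, calling an adjusted p (Benjamini-Hochberg) under 0.05. Each library is 1 mouse. A limma (3.58.1) fit on log2(FPKM + 1) was an alternative, as were DESeq2 1.42.0, a pseudocount of 0.1, other scalings and filters, flow cell and leaving out each mouse. On simulated counts with 200 of 17622 genes changed 2-fold, 82% were recovered for Veh against WT, 82.5% for anti-miR-21 against Veh, 80% for ACEi against Veh and 79% for anti-miR-21 against ACEi, and 4.65%, 4.62%, 8.57% and 1.25% of the calls in the same order fell on unchanged genes. Correlations used scipy 1.17.1, on log2 CPM with a prior count of 2.

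All 10 members are named. From each pathway list, the 2 genes that rose most and the 2 that fell most between Veh and WT are named, if they passed the test and averaged 1 or more on the log2 CPM scale. For likeness, the rule took the 3 genes of highest r for each member. One gene that this rule selects is not reported here. The members and lists were chosen with earlier results of these data known. Gene models were GENCODE M21.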

Additional observations from a re-analysis of the deposited data

Results flagged for a closer look

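In 30 groups of 5 or 6 mice (10 members in WT, Veh and anti-miR-21) tested for a value far from the rest by Dixon's criterion, 6 values stood out, where chance gives about 1 in 20 groups. Of these, 5 were values of Veh mouse A19: Fos at 39.9 CPM (next highest Veh mouse 19.04), Fosb at 8.52 CPM (next 3.30), Jun at 212.6 CPM (next 122), Egr1 at 245 CPM (next 100.2) and Atf3 at 61.2 CPM (next 22.8). The other was Fosl1 at 3.14 CPM in anti-miR-21 mouse A10 (next 1.51). These values are not independent, since 5 come from 1 library.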

How the results depend on the processing

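No paired analysis was possible because the mouse names are unique and pair no mice across groups. The count of members called by edgeR for anti-miR-21 against ACEi, 0, was 2 with DESeq2 and 1 with only the groups compared. Over all genes tested these fits called 103, 437 and 141 in the same order. The count of members was 0 to 0 when each mouse was left out. The count of pathway list genes for that comparison, 2, was 5 with DESeq2, 0 with either FPKM fit, 0 with library totals, 1 with no filter and 1 with flow cell as a term, and 0 to 3 when leaving out a mouse. Leaving out each mouse gave 0 to 2 members for ACEi against Veh (0 without A23, and 1 without A1, A4, A20, A11 or A13), 9 to 10 for anti-miR-21 against Veh, 8 to 9 for anti-miR-21 against WT, 9 to 9 for ACEi against WT and 10 to 10 for Veh against WT. For the pathway lists it gave 33 to 54 genes for ACEi against Veh, against 51 with all mice (33 without A13). Among the members, changes of sign occurred only for log2 fold changes that were not called in either fit. Fosb in ACEi against Veh was -0.039 with log2(FPKM + 1), -0.019 with log2(FPKM + 0.1), -0.24 with library totals and -0.034 with upper-quartile scaling. Jund in anti-miR-21 against ACEi was -0.038 with either FPKM fit and -0.016 with library totals. Jund in ACEi against WT was 0.32 with either FPKM fit, 0.30 with library totals, 0.027 with upper-quartile scaling, 0.030 with no filter, 0.048 with at least 10 counts in every mouse and 0.019 with only the groups compared. Leaving out a mouse gave -0.25 to 0.35 for Fos, -0.081 to 0.50 for Fosb and -0.33 to 0.26 for Atf3 in ACEi against Veh. For Jund it gave -0.00079 to 0.12 in anti-miR-21 against ACEi, -0.036 to 0.14 in anti-miR-21 against WT and -0.089 to 0.085 in ACEi against WT. The cause of these changes was not tested. The median r of the 45 pairs ran from 0.48 to 0.62 when leaving out a mouse. Depth limits Fosb and Fosl1, which a filter of at least 10 counts in every mouse removed.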
